A study of Mus musculus with 9 samples.

Results

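Chemokines are small secreted proteins that guide migrating cells through receptors coupled to G proteins. Activated CD8+ T cells are a known source of Xcl1, Ccl3, Ccl4 and Ccl5, and type 17 T cells are known for Ccl20 together with its receptor Ccr6. The 6 chemokine ligand genes described here, Xcl1, Ccl3, Ccl4, Ccl1, Ccl20 and Ccl5, were chosen by their levels and their differences between groups in these same libraries, out of 41388 genes in the table. Their levels and fold changes are therefore a description, and no p-value is given for them. They are transcripts, so that secretion of the proteins was not measured.

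The cells were CD8+ T cells of the mouse polarized towards IL-17 production (Tc17). Naive CD62L+CD44-CD8+ cells from lymph nodes and spleens of C57BL/6 mice aged 8 to 12 weeks were primed for 48 h with 5 µg/ml anti-CD3, 0.5 µg/ml anti-CD28, 50 U/ml IL-2, 0.5 ng/ml TGF-β, 30 ng/ml IL-6 and 5 µg/ml anti-IFN-γ. All cultures received this mixture and the solvent DMSO at 0.2%. Ctrl cultures received nothing further, DMF cultures 20 µM of dimethyl fumarate, an electrophile that reacts with thiols, and DMF + GSH cultures 20 µM DMF plus 50 µM of the thiol glutathione. Each group had 3 libraries, with replicate 1 of each group in preparation batch 1 and replicates 2 and 3 in batch 2. GSH alone was not analysed here, and the labels do not state whether replicates came from separate mice, so that p-values measure the spread between these samples only.

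Depth was 7671772 to 11589246 reads in Ctrl, 10382638 to 12669991 with DMF and 9753478 to 14511926 with DMF + GSH. The deposited unit is the normalized count, a read count divided by a factor for its library. The CD8 gene Cd8a was at 9317 to 13778 normalized counts in the 9 libraries, and Cd4 was at 0 to 4.40. Of the 5 CD8+ T cell markers, Cd8a was higher with DMF than in Ctrl in all 3 replicates and Cd3e, Cd3d and Cd3g were lower in all 3. Their log2 fold changes were 0.31, −0.23, −0.34 and −0.53, that of Cd8b1 was 0.06, and none passed the threshold used here (adjusted p below 0.01 and a log2 fold change of at least 0.75), with or without the replicate block. The Tc17 cytokine genes Il17a and Il17f were detected in all 9 libraries, with a summed level of 2888 to 4476 in Ctrl, 753 to 1936 with DMF and 2971 to 4978 with DMF + GSH. One library stood apart in macrophage and monocyte markers, as their sum was 343 in Ctrl replicate 3 and 74.8 and 83.6 in the other 2 Ctrl libraries. It was 57.1 to 73.6 with DMF, below all other libraries, and 88.5 to 92.8 with DMF + GSH, and outside Ctrl replicate 3 most of it was Cd68 (44.5 to 64.2 with DMF and 69.0 to 82.5 elsewhere). Mast cell markers, mainly Cpa3, summed to 29.7 in Ctrl replicate 2 and 33.0 in DMF + GSH replicate 1, and to 0 to 4.45 in the other 7. Neutrophil and NK cell markers were low, at sums of up to 10.4 and 4.16, and were lower in all DMF than in all Ctrl libraries. Epithelial and stromal markers summed to 377 to 824 in Ctrl and 402 to 545 with DMF, with Krt8 at 0 in all libraries. Among them, Epcam was at 70.7, 71.5 and 86.7 in Ctrl, 340, 195 and 253 under DMF and 109, 80.2 and 154 under DMF + GSH, with all DMF libraries above the others, whereas Pecam1 was at 737, 723 and 273 in Ctrl and 195, 236 and 146 under DMF. The part of these cells in the results was not tested. In bulk RNA, a change in the number of cells that express a gene and a change in RNA per cell cannot be told apart.

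The genes Ccl1, Ccl3, Ccl4 and Ccl5 lie on chromosome 11 of GRCm38 and the others on chromosome 1. Ccl3 (ENSMUSG00000000982, chr11:83647844-83649355, reverse strand, 3 exons) and Ccl4 (ENSMUSG00000018930, chr11:83662584-83664683, forward strand, 3 exons) are neighbours with 13228 bases between them. Ccl5 (ENSMUSG00000035042, chr11:83525778-83530518, reverse strand, 3 exons) lies 117325 bases from Ccl3. Ccl1 (ENSMUSG00000020702, chr11:82176657-82179812, reverse strand, 3 exons) lies 1345965 bases from Ccl5. Xcl1 (ENSMUSG00000026573, chr1:164931644-164935527, reverse strand, 3 exons) and Ccl20 (ENSMUSG00000026166, chr1:83116774-83119167, forward strand, 4 exons) complete the set. All are protein-coding, and these positions are those of the principal transcript in GENCODE vM21. Of the 50-base stretches of Xcl1, 10.8% also occur in the antisense model Gm20743, and since the library kit does not mark strand, reads from the pair could not be separated there. The other 5 genes shared no 50-base stretch with another gene.

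The upstream sequences of Ccl1 and Ccl20 are shown because they hold the same kind of letter match and belong to the member with the largest difference and to a member whose groups overlapped. They are the 250 bases before the RefSeq start in GRCm38.p6, written along the strand of the gene. Capitals mark GGGNNNNNCC, an NF-kB-like motif, and in Ccl20 also TCACACCT, the reverse strand of the T-box-like motif AGGTGTGA. The Ccl1 window is chr11:82179813-82180062 and the Ccl20 window is chr1:83116516-83116765.
Ccl1: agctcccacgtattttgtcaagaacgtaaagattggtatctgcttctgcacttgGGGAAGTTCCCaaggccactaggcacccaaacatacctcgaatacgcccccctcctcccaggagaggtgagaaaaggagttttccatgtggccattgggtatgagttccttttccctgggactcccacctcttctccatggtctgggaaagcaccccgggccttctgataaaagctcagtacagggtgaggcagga
Ccl20: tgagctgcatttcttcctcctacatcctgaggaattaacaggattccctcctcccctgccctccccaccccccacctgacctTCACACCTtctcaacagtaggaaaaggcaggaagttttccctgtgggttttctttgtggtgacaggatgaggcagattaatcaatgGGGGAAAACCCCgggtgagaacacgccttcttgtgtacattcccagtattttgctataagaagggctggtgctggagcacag

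The NF-kB-like match of Ccl1 lay at −196 to −186 relative to the start, and overlapping matches of Ccl20 covered −82 to −71. On both strands, 46% of 32536 windows of this length held that motif and 1.12% held the T-box-like one. The window of Ccl20 held the T-box-like letters at −168 to −161, and its NF-kB-like stretch overlapped GGAAA, an NFAT-like motif found in 55.7% of windows. The window of Ccl1 held GGAAA as well, at −51 to −47 and, on the reverse strand, at −116 to −112 and −86 to −82. The windows of Xcl1 and Ccl3 held GGAAA on the reverse strand and neither of the other motifs. TGANTCA, an AP-1-like motif (6.73% of windows), and TGACGTCA, a CRE-like motif (1.56%), were in none of these 4 windows. These letters describe the windows and were not tested for binding.

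Xcl1 had the highest level of the 6 genes in every group. It encodes lymphotactin, the ligand of Xcr1 on cross-presenting dendritic cells. Its normalized counts were 2240, 2514 and 1775 in Ctrl replicates 1, 2 and 3, 3942, 4357 and 3384 under DMF, and 2364, 3060 and 1904 under DMF + GSH. All 3 DMF libraries lay above all libraries of the other groups, and Ctrl and DMF + GSH overlapped. The ratio of DMF to Ctrl within a replicate number was 1.76, 1.73 and 1.91, which was the narrowest range of the 4 genes that were higher with DMF. The log2 fold change (log2FC) of the normalized counts plus 1 was 0.85 (SE 0.18) for DMF against Ctrl, −0.69 for DMF + GSH against DMF and 0.15 for DMF + GSH against Ctrl.

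**Figure D1:**
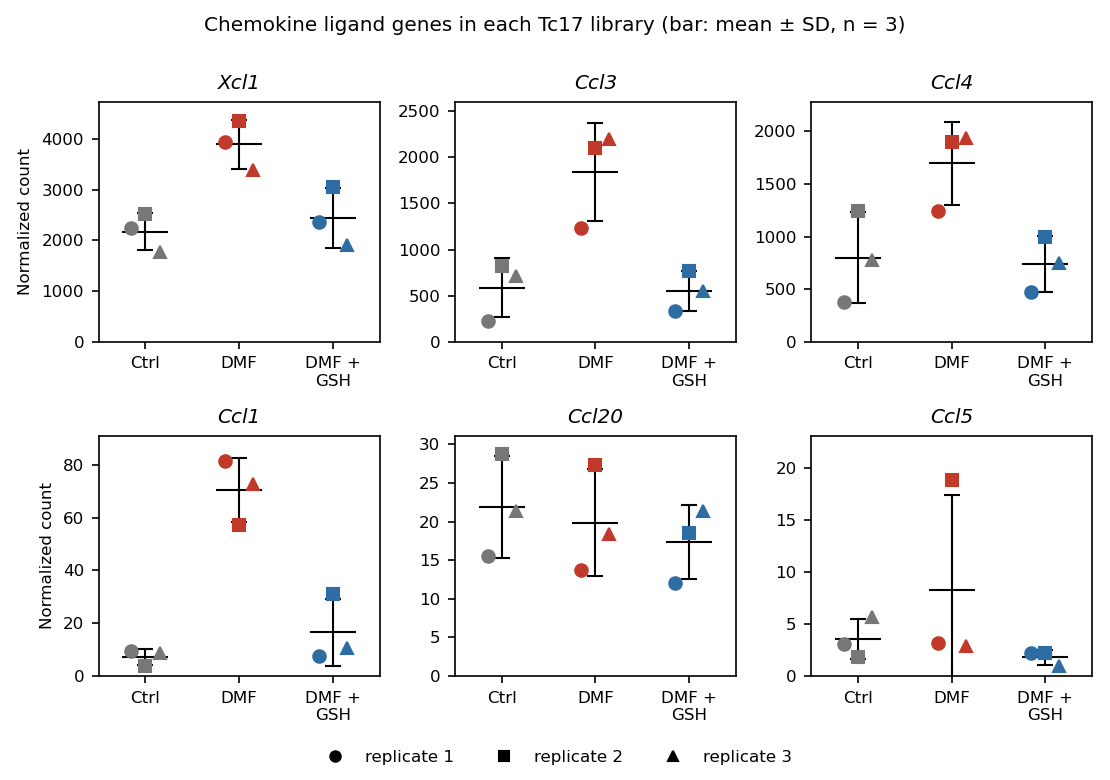
Normalized counts of the 6 chemokine ligand genes (vertical axes, linear, starting at 0) in Ctrl, DMF and DMF + GSH; each point is a library, its shape the replicate number, and the bars give the mean ± SD of 3 libraries (cut at 0 for Ccl5). The 3 DMF libraries of Xcl1, Ccl3, Ccl4 and Ccl1 sit above all libraries of the other groups, while those of Ccl20 overlap with both.

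Ccl3 and Ccl4 encode related inflammatory chemokines that attract leukocytes. Ccl3 was at 227, 823 and 714 normalized counts in Ctrl, 1229, 2096 and 2194 under DMF, and 337, 771 and 546 under DMF + GSH. Ccl4 was at 377, 1241 and 778 in Ctrl, 1243, 1903 and 1941 under DMF, and 472, 999 and 749 under DMF + GSH. Replicate 1 was the lowest library of its group for both genes in all 3 groups. For Ccl3 the DMF libraries were clear of the others, whereas the lowest DMF library of Ccl4 lay just above Ctrl replicate 2, with 1243 against 1241. Within replicate numbers, Ccl3 was 5.43, 2.55 and 3.07 times as high with DMF as in Ctrl, and Ccl4 was 3.29, 1.53 and 2.49 times as high.

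For Ccl3 the log2FC was 1.80 (SE 0.19) for DMF against Ctrl, −1.77 for DMF + GSH against DMF and 0.03 for DMF + GSH against Ctrl. For Ccl4 these values were 1.22 (SE 0.19), −1.23 and −0.02. The difference between DMF and Ctrl was larger in batch 1 than in batch 2, with 2.43 against 1.48 for Ccl3 and 1.72 against 0.97 for Ccl4, and had the same direction in both. Ctrl replicate 3 held the high macrophage and monocyte markers, although the cultures were started from cells selected as CD62L+CD44-CD8+, and the part of such cells in these values was not tested. Without that library the log2FC for DMF against Ctrl was 1.85 for Ccl3 and 1.11 for Ccl4.

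The 2 neighbouring genes moved together between libraries but not in equal measure. Their correlation over the 9 libraries on the log2 scale was 0.983, and it was 0.970 once the group means were subtracted. These points share library depth and replicate number, and the value is a description. Ccl3 made up 37.5, 39.9 and 47.9% of the reads of both genes in Ctrl replicates 1, 2 and 3, 49.7, 52.4 and 53.1% under DMF, and 41.6, 43.6 and 42.2% under DMF + GSH. All DMF libraries were higher than all others, although the 95% Wilson interval of Ctrl replicate 3 (44.8 to 50.9%) overlapped that of DMF replicate 1 (47.7 to 51.7%). The log2 ratio of Ccl3 to Ccl4 differed between DMF and Ctrl by 0.72, 0.73 and 0.30 within replicates 1, 2 and 3, and between DMF + GSH and DMF by −0.47, −0.51 and −0.63. These intervals, like those given for single genes, cover counting error only.

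**Figure D2:**
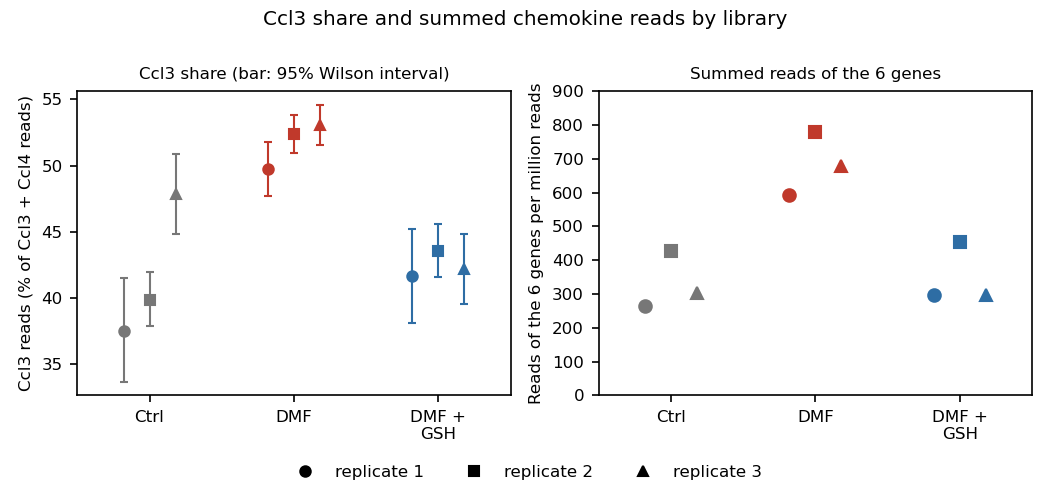
Left, Ccl3 reads as a percentage of the reads of Ccl3 and Ccl4 (axis not starting at 0), with 95% Wilson intervals; right, reads of the 6 genes per 1000000 reads of the library. Each point is a library and its shape the replicate number; on both panels the 3 DMF libraries lie above the 6 others, with Ccl3 shares of 49.7 to 53.1% and sums of 593 to 780.

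Ccl1 had the largest fold change of the 5 tested genes. It encodes the ligand of Ccr8, a receptor found on T cell subsets. It was at 9.35, 3.72 and 8.53 normalized counts in Ctrl, 81.5, 57.4 and 72.6 under DMF, and 7.70, 31.2 and 10.7 under DMF + GSH. All DMF libraries were above all others, and DMF + GSH replicates 2 and 3 lay above every Ctrl library, replicate 3 only slightly. The Ctrl values rest on 9, 4 and 6 reads, those under DMF on 77, 67 and 75 and those under DMF + GSH on 7, 42 and 11. The exact 95% Poisson interval for the 42 reads was 30.3 to 56.8, above the intervals of the other 2 DMF + GSH libraries (2.81 to 14.4 and 5.49 to 19.7 reads).

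The log2FC of Ccl1 was 3.19 (SE 0.49) for DMF against Ctrl, −2.25 for DMF + GSH against DMF and 0.94 for DMF + GSH against Ctrl. Within replicate numbers the last of these was −0.25, 2.77 and 0.30, so that the mean rests largely on replicate 2. It was 0.34 without DMF + GSH replicate 2 (0.13 with the block) and 1.25 with DESeq2 on the reads. The values within replicates for DMF + GSH against DMF were −3.24, −0.86 and −2.65. Without DMF + GSH replicate 2 that log2FC was −2.85 (−3.06 with the block), and without DMF + GSH replicate 1 it was −1.71. With so few reads, the pseudocount of 1 makes this log2FC smaller than the ratio of the levels. The ratio of normalized counts between DMF and Ctrl was 8.71, 15.4 and 8.51 in replicates 1, 2 and 3.

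Ccl20, the ligand of Ccr6 and a chemokine associated with type 17 cells, was low in all groups. It was at 15.6, 28.8 and 21.3 normalized counts in Ctrl, 13.8, 27.4 and 18.4 under DMF, and 12.1, 18.6 and 21.4 under DMF + GSH. The 3 groups overlapped. The log2FC was −0.15 (SE 0.26) for DMF against Ctrl, −0.17 for DMF + GSH against DMF and −0.31 for DMF + GSH against Ctrl. Between 11 and 32 reads stand behind each value, so that a difference of the size seen for Xcl1 would be close to the counting error of single libraries. Within replicates 1, 2 and 3 the log2 difference between DMF and Ctrl was −0.17, −0.07 and −0.20. After subtraction of the group means, Ccl20 correlated over the 9 libraries with Ccl3 at 0.789 and with Ccl4 at 0.828, a description in which replicate 1 was the lowest library of all 3 genes in each group.

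Ccl5, a chemokine of effector and memory CD8+ T cells, was close to the limit of detection and was too low to be tested. Ctrl libraries held 3, 2 and 4 reads, DMF libraries 3, 22 and 3, and DMF + GSH libraries 2, 3 and 1, which are 3.12, 1.86 and 5.69, 3.17, 18.8 and 2.90, and 2.20, 2.23 and 0.972 normalized counts. The single high value was that of DMF replicate 2. Its exact 95% Poisson interval of 13.8 to 33.3 reads did not reach those of the other DMF libraries (0.619 to 8.77 reads each). The other 2 DMF libraries were within the range of Ctrl. In normalized counts all DMF + GSH values were below all DMF values, which also held for 20.5% of all genes tested. In reads they were not separate, as DMF + GSH replicate 2 and DMF replicates 1 and 3 held 3 reads each.

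**Figure D3:**
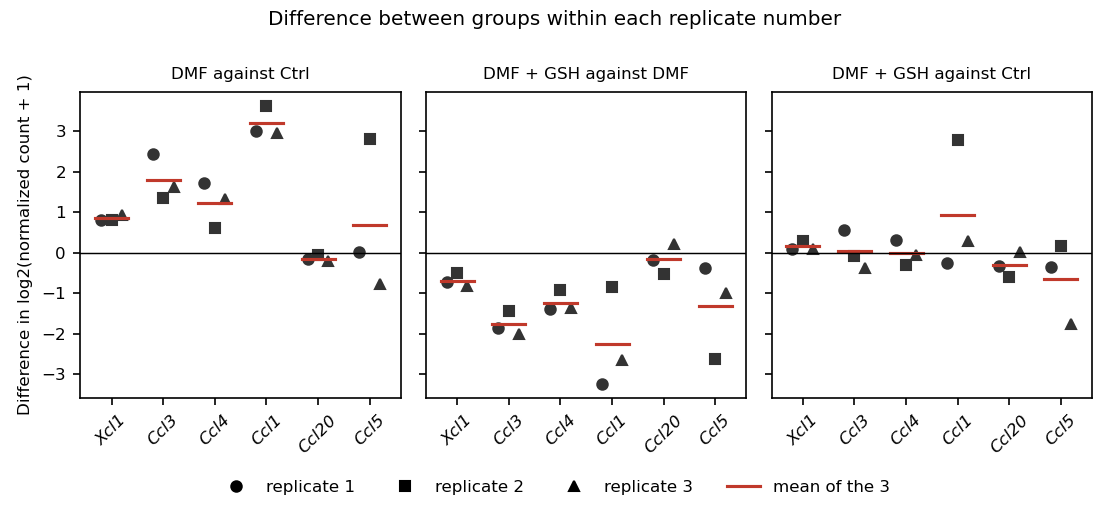
Difference in log2(normalized count + 1) between groups within replicates 1, 2 and 3 (points) and their mean (line) for each of the 6 genes, in 3 panels for DMF against Ctrl, DMF + GSH against DMF and DMF + GSH against Ctrl. Xcl1, Ccl3, Ccl4 and Ccl1 are above 0 in all 3 replicates on the left and below 0 in the middle. Ccl5 has the widest spread on the left, and Ccl1 and Ccl5 in the other panels.

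Per kilobase of principal transcript, Xcl1 led in each group, with 4161 ± 714 normalized counts (SD, n = 3) in Ctrl, 7446 ± 934 with DMF and 4671 ± 1113 with DMF + GSH. Ccl4 and Ccl3 came next and their ranges overlapped each other in all groups, with 1210 ± 655 and 767 ± 415 in Ctrl and 2569 ± 594 and 2402 ± 693 with DMF. Ccl1 changed its place, as it lay below Ccl20 in Ctrl (7.23 to 18.2 against 19.6 to 36.3) and above it with DMF (112 to 158 against 17.3 to 34.5). With DMF + GSH the ranges of Ccl1 and Ccl20 overlapped. Against the 11550 tested genes with a length, Xcl1 in Ctrl was above 99.4%, Ccl3 above 90.8% and Ccl1 above 11.3% of them, and with DMF Ccl1 was above 50.4%.

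Reads of the 6 genes together amounted to 266, 428 and 303 per 1000000 reads in Ctrl, 593, 780 and 680 under DMF and 298, 453 and 298 under DMF + GSH. The DMF libraries were clear of the other groups. Within replicates 1, 2 and 3 the sum was 2.23, 1.82 and 2.25 times as high with DMF as in Ctrl, and 1.12, 1.06 and 0.985 times as high with DMF + GSH as in Ctrl. Xcl1 supplied 44.5 to 78.0% of these reads.

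The fit covered 11599 genes whose mean was 10 normalized counts or more, 5 of the 6 members among them. A call required an adjusted p (p adj) below 0.01 and a log2FC of 0.75 or more in either direction. For DMF against Ctrl, Ccl1, Ccl3 and Ccl4 were past it in the upward direction, as were 1.22% of all genes tested, and with the replicate number as a block Xcl1 joined them, with 2.53% of all genes. All DMF libraries lay above all Ctrl libraries for 4 of the 5, and for 21.6% of all genes tested. For DMF + GSH against DMF, Ccl3 was past the threshold downward, as were 0.276% of all genes, and with the block Ccl1, Ccl3 and Ccl4 were, with 2.41%. All DMF + GSH libraries lay below all DMF libraries for 4 of the 5, and for 20.5% of all genes. Since the choice of the members used these contrasts, nothing is read from these shares.

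For DMF + GSH against Ctrl, limma called 0 members and 0 genes (0%), and edgeR and DESeq2 likewise 0. In limma, 222 of the 11599 genes had an unadjusted p under 0.05, a share below the 0.05 due to valid tests of unchanged genes. The 0 calls do not show that these groups were equal. The 3 comparisons share their libraries, so that a high DMF library enters both of the first 2. The median log2FC of the 5 tested members was 1.22, −1.23 and 0.03 in the 3 comparisons, and that of all genes tested was 0.0052, −0.0017 and −0.00050. Calls for DMF against Ctrl depended on single libraries without the block, as 0 members were called without Ctrl replicate 1, DMF replicate 1 or DMF replicate 3, only Ccl3 without DMF + GSH replicate 1, and Ccl3 and Ccl4 without Ctrl replicate 2. With no batch term Ccl3 and Ccl4 lost their calls and Ccl1 and Xcl1 were called, and with only the 6 libraries compared Ccl4 lost its call. For DMF + GSH against DMF, 0 were called without DMF replicate 1 or 3 or DMF + GSH replicate 1 or 2. With the block, 4 members were called for DMF against Ctrl whichever library was left out.

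Most other chemokine ligand genes had few or no reads. Of 34 further ligand genes in the table, 14 had no read in any library and 3 were tested, and none of these 3 passed the threshold. Ccl9 had a log2FC of 0.88 for DMF against Ctrl (SE 0.49, p adj = 0.202, limma), with 13.5, 8.36 and 18.5 normalized counts in Ctrl and 20.1, 32.5 and 22.3 with DMF. Ccl25, at 28.2 to 46.2 normalized counts in the 9 libraries, had a higher mean than the members Ccl1, Ccl20 and Ccl5 (37.8 against 31.4, 19.7 and 4.55). It had a log2FC of 0.09 (p adj = 0.780) and Cxcl10, an interferon-induced chemokine, one of 0.13 (p adj = 0.879). The highest of the untested ones was Cxcl16, with at most 12.8 normalized counts in a library.

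The receptor genes of the members differed among themselves in direction. Of the 5 receptor genes described here, 3 were tested. For DMF against Ctrl, 1 rose and 2 fell past the threshold, where 2.89% of all genes tested passed it in either direction.

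Ccr8, the receptor for Ccl1, was at 99.8, 111 and 152 normalized counts in Ctrl, 206, 223 and 308 under DMF, and 64.9, 75.0 and 122 under DMF + GSH. It rose with DMF (log2FC 1.02, SE 0.21, p adj = 0.00936, limma) and was lower with DMF + GSH than with DMF (log2FC −1.51, p adj = 0.00692). The DMF libraries were above all others. Under other settings the first p adj lay between 1.11e-06 and 0.0691, and the call was lost without Ctrl replicate 1 or 2, DMF replicate 1 or 3, or DMF + GSH replicate 1 (p adj 0.0196 to 0.0691). It was also lost with quantile normalization (0.0108), with no batch term (0.0169) and with only the 6 libraries compared (0.0126), and was kept with the replicate block (2.58e-06). The second call was lost without Ctrl replicate 1, DMF replicate 1 or 3, or DMF + GSH replicate 1 or 2 (p adj 0.0216 to 0.0713), with no batch term (0.0114) and with only the 6 libraries compared (0.0195).

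Xcr1, the receptor for Xcl1, was at 69.6, 69.7 and 55.5 normalized counts in Ctrl, 13.8, 14.6 and 16.5 under DMF, and 67.1, 52.7 and 33.1 under DMF + GSH. It fell with DMF (log2FC −2.05, SE 0.26, p adj = 0.00297, limma), in the direction opposite to the difference of its ligand, and was higher with DMF + GSH than with DMF (log2FC 1.65, p adj = 0.00940). The DMF libraries were below all others. Xcr1 is also a marker of dendritic cells. The 5 dendritic cell markers, Xcr1 included, summed to 64.0 to 88.2 normalized counts in Ctrl, at most 23.2 under DMF and 41.8 to 82.5 under DMF + GSH. Of the other 4, Itgax was at 7.28, 15.8 and 7.11 in Ctrl and 4.23, 2.57 and 5.81 under DMF, lower under DMF in all 3 replicates, as was Xcr1. Flt3 was at 4.16, 0.929 and 1.42 in Ctrl and 0, 0.856 and 0.968 under DMF, while Clec9a and Siglech were at 0 to 1.10 in all 9 libraries. The part of dendritic cells in the difference of Xcr1 was not tested. The call for DMF against Ctrl was lost without Ctrl replicate 1 or 2 or DMF replicate 1 or 3 (p adj 0.0135 to 0.0354), and with the block the p adj was 1.71e-06. The call for DMF + GSH against DMF was lost without replicate 1 or 2 of Ctrl, 1 or 3 of DMF, or 1 or 2 of DMF + GSH (p adj 0.0112 to 0.0923), with no batch term (0.0112) and with only the 6 libraries compared (0.0227).

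Ccr6, the receptor for Ccl20, was at 27.0, 42.7 and 45.5 normalized counts in Ctrl, 5.29, 9.42 and 16.5 under DMF, and 24.2, 26.0 and 22.4 under DMF + GSH. It fell with DMF (log2FC −1.88, SE 0.31, p adj = 0.00635, limma), while the levels of its ligand overlapped. DMF + GSH libraries were all above the DMF libraries and all below the Ctrl libraries, with a log2FC of 1.27 against DMF (p adj = 0.0212, and 0.00272 with the block). That difference passed the threshold in 6 of 29 alternatives, all with the block. With the block it was lost without replicate 1 or 2 of DMF or of DMF + GSH. The first call was lost without Ctrl replicate 1 or 2, DMF replicate 1 or 3, or DMF + GSH replicate 1 (p adj 0.0123 to 0.0556), and with only the 6 libraries compared (0.0123).

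Ccr1, a receptor for Ccl3 and Ccl5, and Ccr3, a receptor for Ccl5, had at most 4.45 and 3.72 normalized counts in a library and were not tested.

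**Figure D4:**
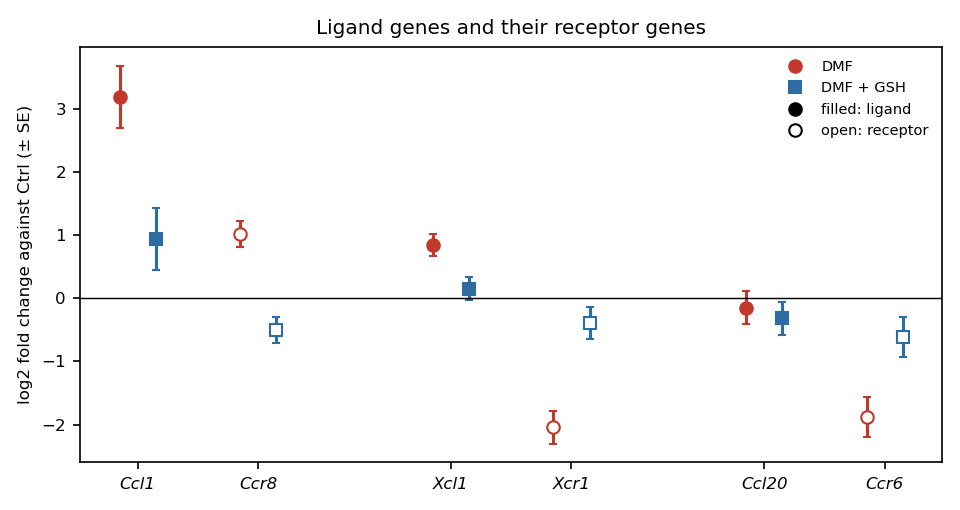
Log2 fold change against Ctrl (± SE of the limma fit, 3 libraries per group) of chemokine ligand genes (filled) and their receptor genes (open) with DMF (circles) and DMF + GSH (squares), on a linear axis. Ccl1 and Ccr8 are both above 0 with DMF (3.19 and 1.02), whereas Xcl1 is above and Xcr1 below it (0.85 and −2.05).

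Of 16 other chemokine receptor genes, 8 were tested and 2 fell with DMF past the threshold, as did 1.67% of all genes tested (4.28% with the block). These were Cxcr4, the receptor for Cxcl12 (log2FC −1.78, p adj = 0.00309, limma), and Cxcr6, the receptor for Cxcl16 (log2FC −1.11, p adj = 0.00543). Cxcr4 was at 233, 90.1 and 69.7 normalized counts in Ctrl and 95.2, 22.3 and 15.5 under DMF. It was lower with DMF in all 3 replicates, but the groups overlapped, whereas all DMF libraries of Cxcr6 were below all Ctrl libraries. With the replicate block Ccr2 fell (log2FC −1.37, p adj = 0.00200) and Ccr4 rose (log2FC 1.01, p adj = 7.21e-07) as well. The calls for Cxcr4 and Cxcr6 were lost without Ctrl replicate 1 or 2 or DMF replicate 1 or 3, and that for Cxcr6 also without DMF + GSH replicate 1, with p adj values up to 0.0537. With only the 6 libraries compared both were lost (p adj 0.0114 and 0.0123), and with no batch term that for Cxcr4 was (0.0717).

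Of 4 genes whose products handle chemokines, Dpp4, a peptidase that trims the start of several chemokines, fell with DMF. It was at 1769, 1700 and 1290 normalized counts in Ctrl, 758, 931 and 720 under DMF, and 1790, 1711 and 1107 under DMF + GSH, with all DMF libraries below the others. The log2FC was −0.98 for DMF against Ctrl (SE 0.18, p adj = 0.00722, limma) and 0.91 for DMF + GSH against DMF (p adj = 0.0130, and 1.39e-07 with the block). The first call was lost without Ctrl replicate 1 or 2, DMF replicate 1 or 3, or DMF + GSH replicate 1 (p adj 0.0155 to 0.0630), and with only the 6 libraries compared (0.0116). Srgn, a proteoglycan of secretory granules, and the sheddases Adam10 and Adam17 did not pass the threshold, with log2FC values of 0.07, −0.07 and −0.13.

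The tested genes whose pattern over the 9 libraries was most like that of each member were listed by Pearson's r on the log2 scale, leaving out the other members. Nearest to Ccl3 were Rgs16 (0.977), Tefm (0.975) and Sema7a (0.975), and nearest to Ccl4 were Sema7a (0.974), Aar2 (0.972) and Rgs16 (0.967). Xcl1 was nearest to Psme1 (0.979), Max (0.953) and Nkg7 (0.947), and Ccl1 to Chtop (0.961), Acbd6 (0.957) and Pcbd2 (0.954). Values for Ccl20 were lower, with Bub3 (0.914), Fdxr (0.910) and Zscan22 (0.902), and so were those for Ccl5, with Psmb8 (0.891), Tfeb (0.875) and Cdipt (0.865). Libraries of a group and of a replicate number are not independent points, and these values describe likeness in these 9 libraries only.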

How the data were processed

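The authors aligned single reads of 50 bp to GRCm38 with STAR 2.4.0b (version as in the submitters' processing notes), counted them per gene with featureCounts and used DESeq2 with a term for the preparation batch. They deposited the counts divided by a factor per library, a signal per gene called normalized count here, for 41388 genes. The table also holds fold changes, test statistics and p-values of their comparison between Ctrl and DMF, which were not used. A strand setting for the counting is not given in the sources used. In every library 100% of the values were whole multiples of the value of 1 read (tolerance 0.01 reads), so that reads were recovered.

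The members and gene lists were chosen with earlier results of these data known. Genes with a mean of at least 10 over the 9 libraries (11599) were fitted with limma 3.58.1 (limma-trend, R 4.3.3) on the log2 scale after adding 1 to the normalized count, with terms for group and batch, all 9 libraries in 1 fit and Benjamini-Hochberg adjustment over all genes tested (p adj). It was checked on simulated counts that held a difference between batches but no pairing by replicate number. That check therefore does not cover such pairing. On the recovered reads, edgeR 4.0.16 called 338, 66 and 0 genes and DESeq2 1.42.0 called 544, 388 and 0 in DMF against Ctrl, DMF + GSH against DMF and DMF + GSH against Ctrl, beside 335, 63 and 0 with limma. Replicate numbers are part of the labels and paired the libraries: after subtraction of group means, correlations across genes between groups ran from 0.447 to 0.578 for the 9 pairs of equal number and from −0.471 to −0.0621 for the others. The blocked fit (replicate number in place of batch) is therefore given where it changes a call.

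Named were the 6 members, ligand genes with a mean of at least 10, receptors of the members, 4 handling genes (Srgn, Dpp4, Adam10, Adam17), receptors past the threshold and the 3 most alike genes of each member, passing over predicted gene models; 1 receptor gene of this rule is not reported here. Positions came from GENCODE vM21 of GRCm38, in which 40340 of 41388 identifiers were found. The annotation also holds a longer Ccl1 model, which was not used for lengths. Upstream sequences came from RefSeq (GRCm38.p6), with an entry for 4 of the 6 members.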

Additional observations from a re-analysis of the deposited data

How the results depend on the processing

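The directions of Ccl1, Ccl3, Ccl4 and Xcl1 for DMF against Ctrl and for DMF + GSH against DMF were the same in all alternatives run. For DMF against Ctrl, log2FC values ranged from 2.62 to 3.54 for Ccl1, from 1.51 to 2.00 for Ccl3, from 1.01 to 1.48 for Ccl4 and from 0.70 to 0.97 for Xcl1. Those for DMF + GSH against DMF ranged from −3.06 to −1.71, from −1.97 to −1.59, from −1.46 to −1.07 and from −0.89 to −0.52. What passed the threshold depended on the fit. Genes past it for DMF against Ctrl were 335 in the reported fit, 789 with the replicate block, 43 with only the 6 libraries compared and 544 with DESeq2, and 2 to 680 with 1 library left out (561 to 865 with the block). For DMF + GSH against DMF they were 63, and 273 with no minimum, 28 with no batch term, 660 with the block, 99 with robust eBayes, 5 with only the 6 libraries compared, 388 with DESeq2 and 0 to 480 with 1 library left out (404 to 728 with the block). For DMF + GSH against Ctrl they were 0, 1 with the block and up to 5 with the block and 1 library left out.

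Members past the threshold for DMF against Ctrl were 3, and 2 with no batch term (Ccl1 and Xcl1), with only the 6 libraries compared (Ccl1 and Ccl3) or with a minimum mean of 50 (Ccl3 and Ccl4, Ccl1 not being tested), 4 with no minimum, the block or DESeq2 (Xcl1 added), and 0 to 4 with 1 library left out (4 in each case with the block). For DMF + GSH against DMF they were 1, and 2 with a pseudocount of 4, with no minimum or with robust eBayes, 0 with no batch term, 3 with the block or DESeq2 and 0 to 2 with 1 library left out (3 to 4 with the block). The cause of these shifts was not tested. The replicate block changed no call of a named gene beyond those given beside the results and, for DMF + GSH against DMF, those of Ccr2 and Cxcr6 (higher) and Ccr4 (lower). Ccl20 for DMF against Ctrl ranged from −0.30 to 0.00098 and kept its sign in 28 of 29 alternatives. For DMF + GSH against Ctrl, Ccl3 (−0.26 to 0.21), Ccl4 (−0.22 to 0.24) and Xcl1 (−0.043 to 0.33) changed sign. Some other low ligand genes without a call changed sign too. Ccl9 for DMF + GSH against DMF ranged from −0.96 to 0.17 with 1 library left out, with and without the block, and was 0.15 without DMF + GSH replicate 3 (0.17 with the block). Ccl25 for DMF against Ctrl ranged likewise from −0.044 to 0.27 and was −0.021 without DMF replicate 2 (−0.044 with the block). Cxcl10 for DMF against Ctrl turned to −0.052 with edgeR and −0.096 with DESeq2, to −0.59 without Ctrl replicate 2 (−0.44 with the block), to −0.046 without DMF replicate 1 and to −0.095 without DMF replicate 2 with the block, and it was 0.64 without Ctrl replicate 3. Cxcl10 for DMF + GSH against DMF turned to 0.29 without DMF + GSH replicate 1 and to 0.032 without DMF replicate 2 with the block, and it was −0.62 without DMF + GSH replicate 3. The edgeR and DESeq2 fits and the block with a library left out were chosen after the data were seen. Where a library was left out of batch 1, a group had no library in that batch. At 1 to 32 reads a library, differences of Ccl5 and Ccl20 below the counting error were not detectable.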
